A study of Mus musculus with 28 samples.

Results

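EO771, a mouse breast cancer line, was profiled after contact with either of 2 host layers, and the 4 libraries labelled EO771 with C2C12 were compared with the 4 labelled EO771 with MLg. C2C12 is a mouse muscle line that was used as myotubes, the fused and contractile form of muscle cells in culture, and MLg cells are fibroblasts of mouse lung. By its labels the comparison thus holds the cancer line and the presence of a host constant and changes the kind of host. The 2 groups also differ in other ways. Replicate names with R3 occur only with C2C12 and those with R7 only with MLg. Libraries whose counts were all even occur only with C2C12. To keep transcripts that a host layer could itself supply out of the description, a gene was kept where its mean level in C2C12 alone and in MLg alone was in each case at most 4 times that in EO771 alone. Of the 55536 genes in the tables, 43517 met this rule, and 13246 of those had enough counts to be tested, out of 15794 genes tested in all. Of the other 30271, 20210 had no count in any of the 12 EO771 libraries. Just inside the limit lay Tnfrsf1b, Bcar3 and Gm36899, with host-to-EO771 ratios of 3.96, 3.98 and 3.99. Just outside it lay Efna3, Pdp1 and Ahdc1, with ratios of 4.00, 4.01 and 4.01.

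The series holds 28 libraries of polyadenylated RNA from the 3 lines, each grown alone or in a shared culture, in 7 groups of 4. All cells are labelled wild type, all were maintained in the same serum-containing medium, and each line stands for itself only, not for a set of tumours or hosts. The series title gives hypoxia as a driver of an effect of muscle cells against cancer cell growth, and oxygen and cell cycle genes are therefore described first. The labels give neither the way host and cancer cells were parted for extraction, nor the time they spent together, nor whether replicates came from separate cultures. The tests below thus weigh differences against the spread of these libraries, some of which may be technical.

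Cells sense low oxygen through hypoxia-inducible factors, or HIF. With oxygen present, prolyl hydroxylases of the Egln family mark the HIF alpha subunits, and the Vhl protein then targets them for degradation. Without it, an alpha subunit pairs with Arnt, binds a short DNA core near its targets and raises genes for glucose uptake, glycolysis, pH control, angiogenesis and matrix modification, among them Egln1 itself. In breast tumours this programme is known for its link to invasion, metabolic change and slowed proliferation. Replication genes, by contrast, are driven by E2F factors when a cell passes from G1 into S phase, and cyclin-dependent kinase (CDK) inhibitors such as Cdkn1a hold that passage back.

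Levels are given as CPM, the count of a gene divided by the total counts of its library in M, where M stands for 1000000. Values per library follow a fixed order: R3-1, R5-1, R5-2 and R6-1 in EO771 with C2C12, and R5-1, R6-1, R6-2 and R7-1 in EO771 with MLg. Total counts ran from 27.6 to 47.4 M in EO771 with C2C12, from 33.2 to 48.3 M in EO771 with MLg and from 34.1 to 39.0 M in EO771 alone. In EO771 with MLg, libraries R5-1 and R7-1 had 11.7% and 10.0% of their counts on the mitochondrial chromosome, against 4.07% to 5.13% in the other pair and 3.22% to 5.01% in EO771 with C2C12. In EO771 with C2C12, every count of R3-1, R5-1 and R6-1 was even, which held for no library of EO771 with MLg. With these counts halved, the totals of R3-1, R5-1 and R6-1 would be 17.2, 23.7 and 14.5 M. Relative to the co-cultured host itself, the 176 transcripts specific to C2C12 reached 1.68% ± 0.82 (SD, n = 4) in EO771 with C2C12, and the 189 specific to MLg reached 1.54% ± 0.381 (SD, n = 4) in EO771 with MLg. The 25 sarcomere and muscle genes, none of which met the level rule, summed to 146 to 545 CPM in EO771 with C2C12, against 20.3 to 29.6 CPM in EO771 with MLg and 23.8 to 26.1 CPM in EO771 alone, and were all measured at higher sums, 985 to 4246 CPM, in the C2C12 libraries of the shared culture. The summed sarcomere level in EO771 with C2C12 was 4.84% to 18.1% of that in those C2C12 libraries, so muscle RNA was present above the share of the other C2C12-specific transcripts. Of the mammary epithelial markers, 6 summed to 181 to 258 CPM in EO771 with C2C12, 72.5 to 129 CPM in EO771 with MLg and 92.0 to 96.8 CPM in EO771 alone, mostly from Krt8, and 1 of them, Krt19, was at 0 in the groups alone and with MLg. Fibroblast markers (8 genes) summed to 205 to 406 CPM and 214 to 326 CPM in the co-cultured groups and 91.3 to 124 CPM alone, macrophage markers (4 genes) to 6.99 to 7.80, 8.63 to 16.7 and 10.5 to 13.1 CPM, and endothelial markers (4 genes) to 2.87 to 7.40, 2.44 to 5.42 and 1.74 to 4.44 CPM. The part that these library differences have in the results below was not tested beyond the alternatives named beside them.

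**Figure D1:**
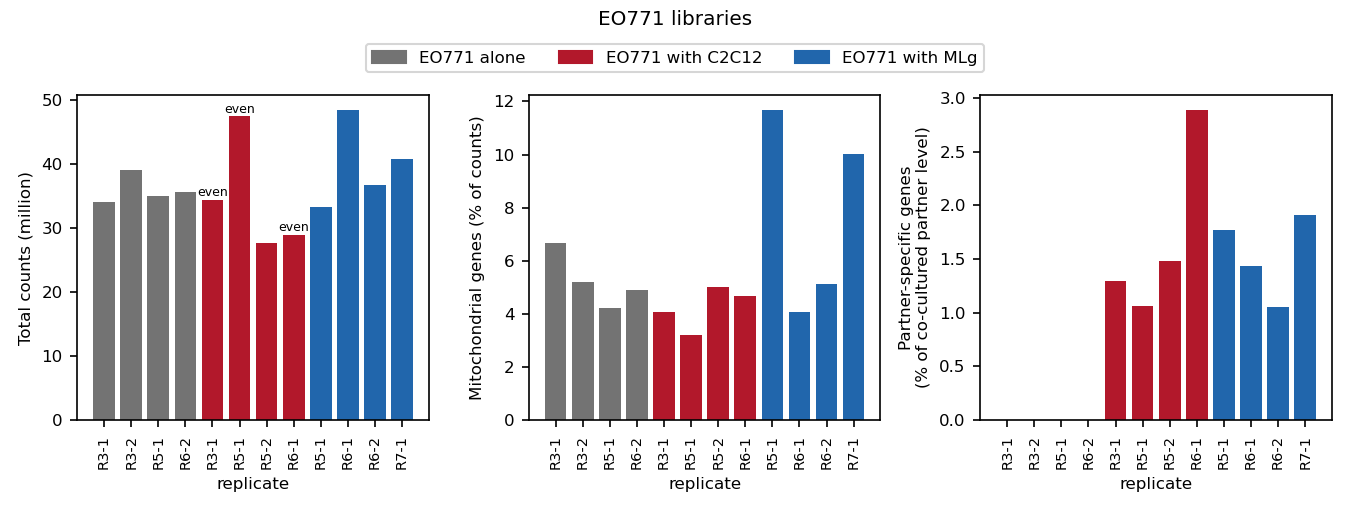
Bars give, for each EO771 library, the total counts in M, the percentage of counts on the mitochondrial chromosome and the level of partner-specific genes as a percentage of that in the co-cultured partner, which is not defined for EO771 alone. The word even marks libraries whose counts were all even. R5-1 and R7-1 of EO771 with MLg stand out in the mitochondrial panel at 11.7% and 10.0%.

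Many transcripts of the cancer cells differed between the hosts. Over all genes tested, 4371 of 15794 (27.7%) were called at an adjusted p under 0.05, and among the genes meeting the level rule 3372 of 13246 were (25.5%). Of the latter, 1660 (12.5%) were higher and 1712 (12.9%) were lower in EO771 with C2C12. A difference of at least 2-fold was reached by 474 of the higher and 356 of the lower genes. In 3229 genes (24.4%) every library of one group lay above every library of the other. The median log2 fold change was -0.04 over the members and -0.01 over all genes tested, so the comparison was close to centred. Among the called members, 1135 of the 1660 higher genes had a lower level in the co-cultured C2C12 libraries than in EO771 with C2C12, and 1532 of the 1712 lower genes had a lower level in the co-cultured MLg libraries than in EO771 with MLg. The level rule limits host levels in advance, and the same shares were not computed over all tested members. Leaving out R3-1 of EO771 with C2C12 gave 1179 higher and 1040 lower members. Halving the counts of the all-even libraries gave 1612 higher and 1673 lower. In the sarcomere setting used here and below, C2C12 counts were subtracted from EO771 with C2C12 at the sarcomere share. The same setting subtracted MLg counts from EO771 with MLg at their partner-specific share, 1.06% to 1.91%. Subtracting C2C12 counts at the sarcomere share gave 1510 and 1027, and leaving out the 3 all-even libraries, which keeps a single library on myotubes that is assumed to vary like the other groups, gave 329 and 74. In that last setting the calls given below for Calr, Cd68, Cdkn1b, Cdkn2d, Egfr, Gclm, Hspa8, Hspd1, Hspe1, Id1, Id2, Jag1, Lars2, Mxd3, Ncl, Nolc1, Notch1, Pecam1, Phgdh, Plau, Plk2, Prim1, Slc30a1, Slc39a10, Vhl and Xbp1 were lost, beside those of the genes named as unsteady where they appear.

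**Figure D2:**
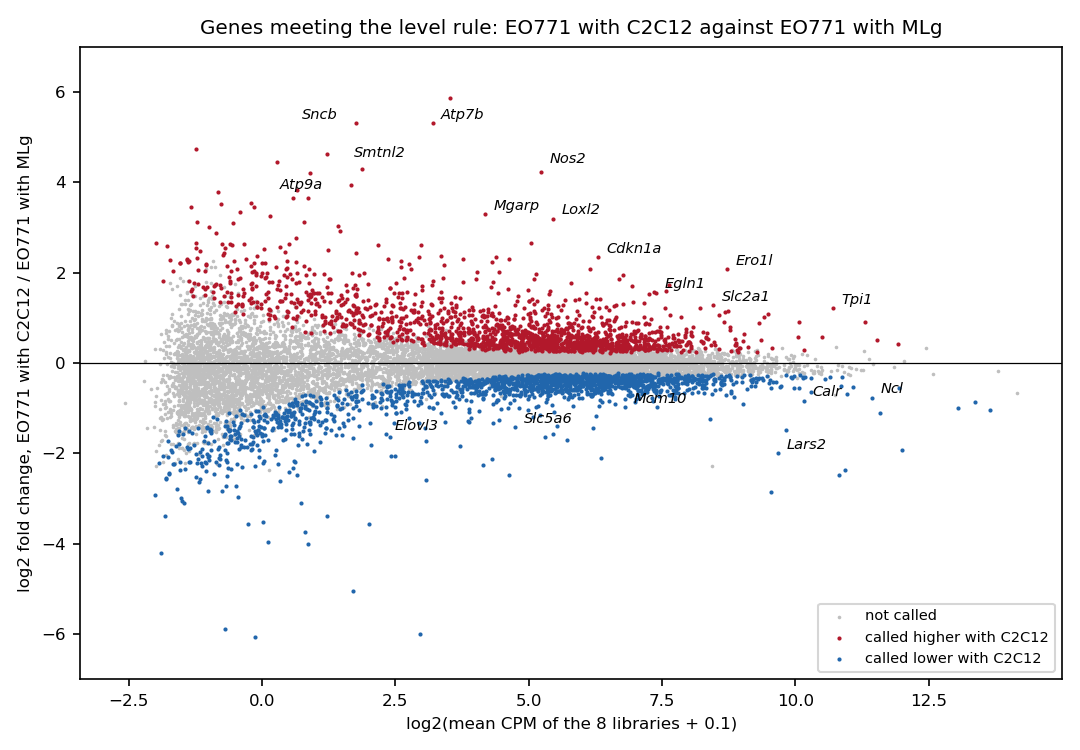
Each point is 1 tested gene that met the level rule, with log2 of its mean CPM over the 8 co-cultured libraries (plus 0.1) on the horizontal axis and its fitted log2 fold change on the vertical axis. Red and blue points are the 1660 and 1712 genes called higher and lower in EO771 with C2C12, grey points were not called, and 2 genes lie outside the vertical range. Of the labelled genes, Atp7b lies highest at 5.32 and Lars2 lowest at -1.99.

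Sequences just upstream of genes from the hypoxia, glucose and S phase lists are shown here, because the HIF core motif and the E2F motif can be read in them directly. Each is the 250 bases before the annotated start from RefSeq on GRCm38.p6, in the direction of transcription. In the genes of oxygen and glucose handling, capitals mark the HIF core, searched as ACGTG or GCGTG on both strands, so that CACGT and CACGC also appear (ACGTG is contained in the E-box CACGTG). In Cdc6 and Mcm6, capitals mark an E2F motif, searched as TTTGGCGC or TTTCCCGC on both strands. Higd1a lies at chr9:121857797-121858046 on the minus strand, Fam162a at chr16:36071562-36071811 on the minus strand, and Ddit4 at chr10:59951771-59952020 on the minus strand. Slc2a1 lies at chr4:119108495-119108744 on the plus strand and Slc16a3 at chr11:120948817-120949066 on the plus strand. Cdc6 lies at chr11:98907901-98908150 on the plus strand and Mcm6 at chr1:128359706-128359955 on the minus strand.
Higd1a: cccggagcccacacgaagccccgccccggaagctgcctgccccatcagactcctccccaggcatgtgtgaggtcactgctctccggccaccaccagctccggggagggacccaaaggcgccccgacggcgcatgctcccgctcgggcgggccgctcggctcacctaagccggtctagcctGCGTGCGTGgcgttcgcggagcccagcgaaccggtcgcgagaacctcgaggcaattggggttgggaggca
Fam162a: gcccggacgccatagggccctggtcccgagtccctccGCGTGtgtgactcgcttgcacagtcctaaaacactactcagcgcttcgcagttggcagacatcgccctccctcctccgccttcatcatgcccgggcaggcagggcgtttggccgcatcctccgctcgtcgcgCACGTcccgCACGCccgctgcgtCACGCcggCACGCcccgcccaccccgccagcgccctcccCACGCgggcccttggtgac
Ddit4: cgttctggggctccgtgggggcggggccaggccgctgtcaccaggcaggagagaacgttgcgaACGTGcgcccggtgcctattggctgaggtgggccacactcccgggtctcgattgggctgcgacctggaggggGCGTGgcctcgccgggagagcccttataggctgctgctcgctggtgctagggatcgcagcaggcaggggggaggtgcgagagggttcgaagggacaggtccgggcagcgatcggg
Slc2a1: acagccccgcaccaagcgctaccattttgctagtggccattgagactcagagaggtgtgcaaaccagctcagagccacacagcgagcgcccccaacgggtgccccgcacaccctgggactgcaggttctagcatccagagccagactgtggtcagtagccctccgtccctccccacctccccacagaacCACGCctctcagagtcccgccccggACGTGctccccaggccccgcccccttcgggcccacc
Slc16a3: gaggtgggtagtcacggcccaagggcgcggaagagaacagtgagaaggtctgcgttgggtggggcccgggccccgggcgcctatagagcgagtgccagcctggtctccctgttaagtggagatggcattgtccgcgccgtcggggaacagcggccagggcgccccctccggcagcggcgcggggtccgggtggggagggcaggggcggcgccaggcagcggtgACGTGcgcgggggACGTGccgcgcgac
Cdc6: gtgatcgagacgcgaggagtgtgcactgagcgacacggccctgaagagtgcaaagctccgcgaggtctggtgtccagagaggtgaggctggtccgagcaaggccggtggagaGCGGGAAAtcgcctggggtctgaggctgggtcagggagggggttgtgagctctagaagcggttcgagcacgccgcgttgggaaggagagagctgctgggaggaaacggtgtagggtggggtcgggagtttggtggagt
Mcm6: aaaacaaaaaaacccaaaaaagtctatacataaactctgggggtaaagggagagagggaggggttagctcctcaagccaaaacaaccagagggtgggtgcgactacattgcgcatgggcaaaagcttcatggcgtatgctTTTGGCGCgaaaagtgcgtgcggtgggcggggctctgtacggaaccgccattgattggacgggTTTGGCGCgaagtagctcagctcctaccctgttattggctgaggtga
The HIF core was present in 12 of the 13 hypoxia response members with a promoter entry (92.3%) and in 15 of the 17 glycolysis members (88.2%). The same letters were in 61.0% of the 8925 tested members with an entry and in 41.5% of all 27025 genes with an entry, counting any promoter of a gene. The E2F motif was in 5 of 26 S phase members (19.2%), in 2.96% of the tested members and in 1.51% of all genes with an entry. A match describes the letters in this window and does not show that a factor binds there. Every sequence printed was one with a match. The HIF core was also in Slc16a1, Gapdh, Pfkfb3 and Pfkfb4, which were not called, and not in Tpi1 and Gpi1, which were called higher. The hypoxia member without it was Car12, called lower. The E2F motif was in the uncalled Mcm7, and not in Mcm10, Orc1 and Prim1, which were called lower.

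The oxygen-sensing machinery itself was higher in part on myotubes. Of its 7 tested members, 4 were called higher and 0 lower (57.1%, against 25.5% among all tested members), with a median log2 fold change of 0.23. Egln1, the main prolyl hydroxylase that marks HIF for degradation and lies at chr8:124908587-124949324 on GRCm38, measured 260.4, 232, 248 and 276 CPM in EO771 with C2C12. In EO771 with MLg it measured 69.2, 88.7, 91.8 and 75.3 CPM. The highest library on fibroblasts thus lay far below the lowest library on myotubes, a 2.95-fold difference (log2 fold change 1.56 ± 0.10 (SE), adjusted p = 3.6e-09). Vhl, which recruits the ligase that degrades marked HIF, measured 31.3, 26.6, 26.6 and 31.4 CPM on myotubes and 12.4, 19.5, 17.1 and 15.2 CPM on fibroblasts. Its libraries did not overlap either, at a log2 fold change of 0.76 ± 0.13 (SE) and an adjusted p of 0.000227. Hif3a, an alpha subunit that in several forms restrains the other two, was at 0 in all 4 libraries of EO771 with MLg. It measured 1.22, 1.14, 1.01 and 0.967 CPM on myotubes, a low level that was at least 14.1-fold higher than on fibroblasts, where 3 counts per library were taken as the most that a count of 0 allows.

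The HIF subunits that carry the response were nearly level between hosts. Hif1a, the main alpha subunit, whose protein and not its transcript is the usual point of control, measured 413, 381, 335 and 344 CPM on myotubes and 288, 354, 324 and 261 CPM on fibroblasts. These ranges overlapped and the difference did not pass the test (log2 fold change 0.17 ± 0.10 (SE), adjusted p = 0.228). Arnt, the shared partner subunit, measured 107, 99.6, 98.3 and 102 CPM on myotubes and 79.2, 88.2, 80.2 and 79.2 CPM on fibroblasts, with no overlap, at a log2 fold change of 0.23 ± 0.08 (SE). Its adjusted p of 0.0494 sat at the threshold, and the call was lost in 23 alternatives, among them every omission of a single EO771 library but R6-1 of EO771 with MLg. Epas1, the other well known alpha subunit, was at 0 in 7 of the 8 co-cultured libraries and at 0.117 CPM in R3-1 of EO771 with C2C12, and was not tested.

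Targets of HIF rose together on myotubes. Of the 35 genes on the hypoxia response list, 20 fell outside the level rule, since a host alone held more than 4 times the EO771 level, and 15 were tested. Of these, 14 were called higher and 1 was called lower, against 12.5% and 12.9% of all tested members, and the list median of 1.18 compares with -0.04 over all members. The count stayed at 14 with C2C12 counts subtracted at the sarcomere share. Ero1l, an oxidase that forms disulphide bonds in the endoplasmic reticulum (ER) and lies at chr14:45283087-45318771, measured 1015, 574, 635 and 547 CPM on myotubes. On fibroblasts it measured 136, 178, 149 and 154 CPM. R3-1 was the highest library on myotubes and the other 3 still lay more than 3-fold above the fibroblast group, with a log2 fold change of 2.08 ± 0.15 (SE) and an adjusted p of 3.1e-08.

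Ddit4, an inhibitor of mTORC1 signalling, measured 254, 150.3, 139.5 and 156 CPM on myotubes and 29.3, 45.7, 43.5 and 53.1 CPM on fibroblasts. R3-1 was again highest, and the groups did not overlap (log2 fold change 1.95 ± 0.17 (SE), adjusted p = 2.6e-07). Its promoter, printed above, carries both forms of the HIF core. Mxi1, a MAX partner that opposes MYC, measured 108, 69.1, 78.7 and 89.9 CPM on myotubes and 17.8, 25.4, 27.3 and 25 CPM on fibroblasts, at a log2 fold change of 1.77 ± 0.14 (SE) and an adjusted p of 5.1e-08. All 4 libraries on myotubes were above all 4 on fibroblasts.

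Higd1a, a mitochondrial protein of the respiratory chain that protects cells in low oxygen, measured 237, 253, 235 and 264 CPM on myotubes and 63.7, 86.8, 95.6 and 66.7 CPM on fibroblasts. The myotube libraries were close to each other and none overlapped with the fibroblast group (log2 fold change 1.58 ± 0.14 (SE), adjusted p = 2e-07). Fam162a, a mitochondrial protein linked to hypoxic cell death, measured 114, 95.5, 93.7 and 102 CPM on myotubes and 25.7, 33.1, 36.2 and 36 CPM on fibroblasts. Its log2 fold change was 1.55 ± 0.12 (SE) with an adjusted p of 5.1e-08, and its level in the co-cultured C2C12 libraries, 124 CPM, was near that in EO771 with C2C12. Vegfa, the main angiogenic factor, measured 228, 172, 208 and 180.1 CPM on myotubes and 76.8, 86, 88.2 and 114 CPM on fibroblasts (log2 fold change 1.03 ± 0.13 (SE), adjusted p = 2.1e-05), and its mean in the co-cultured C2C12 libraries was 365 CPM. The groups did not overlap.

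The exception was Car12, a surface carbonic anhydrase that helps to control pH, which was picked out after its values were seen because it alone ran against the list. It measured 21.7, 33.2, 34.1 and 29.98 CPM on myotubes and 60.2, 63.2, 54.8 and 59.7 CPM on fibroblasts. The lowest library was R3-1 on myotubes, no library overlapped, and Car12 fell by 1.08 on the log2 scale (SE 0.14, adjusted p = 1.9e-05).

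Glucose handling followed the same direction. Of 18 tested members of the glycolysis and glucose uptake list, 13 were called higher and 0 lower, with a median log2 fold change of 0.63. These calls made up 72.2%, against 25.5% among all tested members. Slc2a1, the glucose transporter GLUT-1, measured 492, 453, 531 and 550.1 CPM on myotubes and 211, 189, 172 and 216 CPM on fibroblasts. Each myotube library was at more than 2 times the level of any fibroblast library, and the log2 fold change was 1.28 ± 0.11 (SE, adjusted p = 2.3e-07). Slc16a3, which exports lactate, measured 877, 909, 1063 and 1112 CPM on myotubes and 528, 401, 388 and 449 CPM on fibroblasts. Its groups stood apart without overlap, at 1.08 ± 0.14 (SE, adjusted p = 2.2e-05) on the log2 scale.

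Of the enzymes called higher, log2 fold changes ran from 0.40 for Hk2 to 1.22 for Tpi1, while Gapdh, at 0.33, did not pass the test (adjusted p = 0.0622). Hk1, which phosphorylates glucose, measured 649.5, 527, 572 and 640 CPM on myotubes and 258, 262, 267 and 232 CPM on fibroblasts, a log2 fold change of 1.14 ± 0.10 (SE, adjusted p = 2.2e-07). Pfkl, a phosphofructokinase subunit at the committed step, measured 530.1, 557, 601 and 609.8 CPM on myotubes and 224, 256, 266 and 243 CPM on fibroblasts, at 1.13 ± 0.09 (SE, adjusted p = 8.4e-08). Tpi1, which interconverts the triose phosphates, measured 2362, 2191, 2377 and 2647 CPM on myotubes and 765, 1065, 1159 and 888 CPM on fibroblasts, at 1.22 ± 0.13 (SE, adjusted p = 2.1e-06). In these 3 enzymes, among those with the largest differences, the groups did not overlap. R5-1 and R7-1, the fibroblast libraries with a high mitochondrial share, were the lowest pair for Tpi1.

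Subunits of oxidative phosphorylation are encoded partly in the nucleus and partly on the mitochondrial chromosome. Among 26 tested nuclear-encoded subunits of the respiratory chain and ATP synthase, edgeR's quasi-likelihood test called 0 in either direction, with 3 at an unadjusted p under 0.05 and a median log2 fold change of -0.04. DESeq2 called 1 lower and limma 0. Leaving out R5-1 and R7-1 of EO771 with MLg together gave 3 lower subunits and a median of -0.17, and the fit with a replicate block called 1 higher. Of 7 tested subunits encoded on the mitochondrial chromosome, 5 were called lower and 0 higher, and mt-Nd1 had a log2 fold change of -1.04 ± 0.26 (SE, adjusted p = 0.006). Without R5-1 and R7-1 of EO771 with MLg, whose mitochondrial share was high, edgeR called 0 of the 7 and the median was -0.31.

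**Figure D3:**
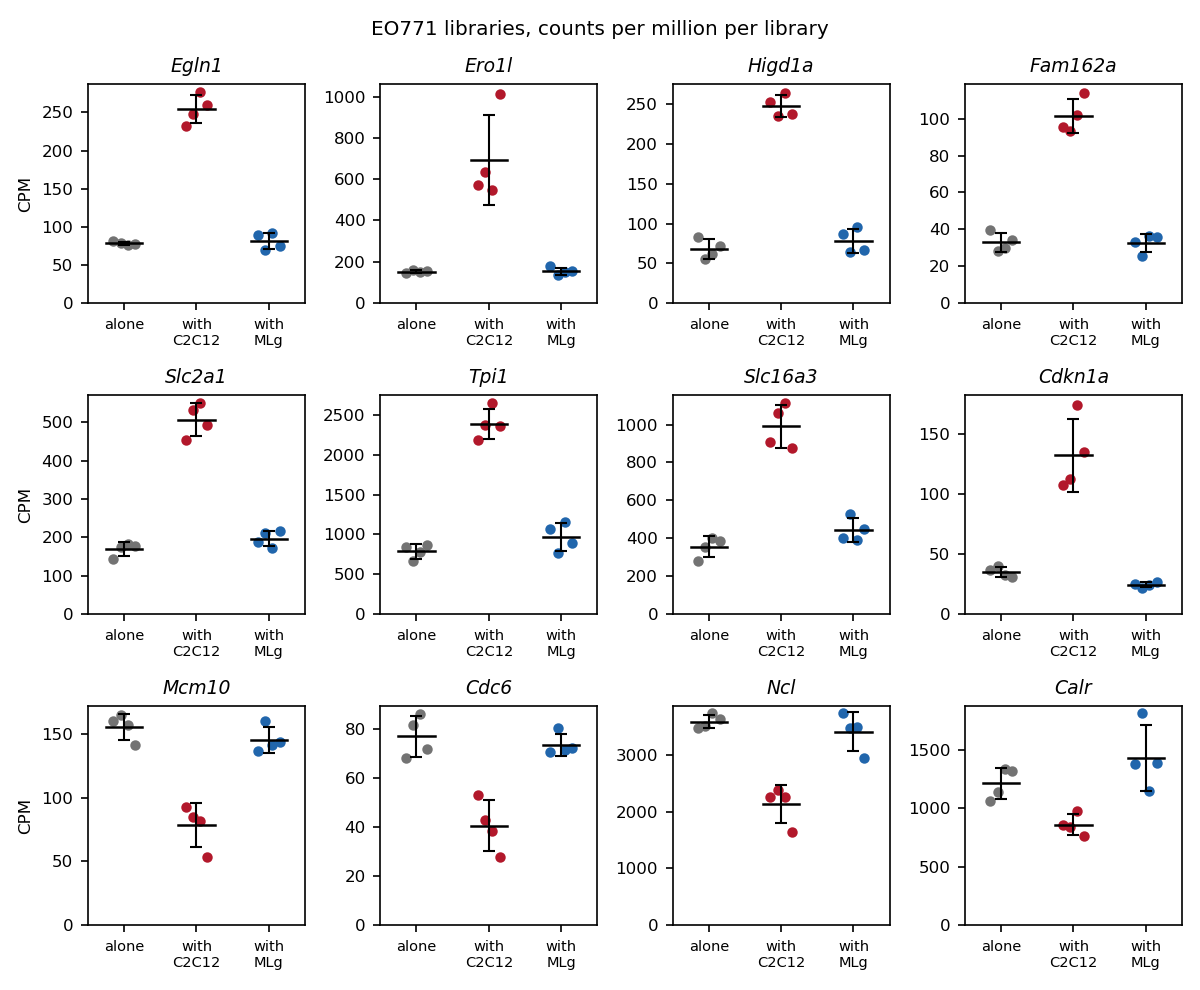
Each panel plots CPM from 0 for 1 gene in the 4 libraries of EO771 alone, EO771 with C2C12 and EO771 with MLg, with the mean as a bar and the SD as the error bar. Egln1, Ero1l, Higd1a, Fam162a, Slc2a1, Tpi1, Slc16a3 and Cdkn1a lie higher with C2C12 than with MLg in every library, and Mcm10, Cdc6, Ncl and Calr lie lower in every library.

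The largest rises, taken by rule only among called genes whose libraries did not overlap, went well beyond these lists. Atp7b, a copper-transporting ATPase at chr8:21992785-22060305, measured 11.5, 13.6, 19.9 and 26.2 CPM on myotubes and 0.331, 0.414, 0.436 and 0.49 CPM on fibroblasts. It was close to the detection limit on fibroblasts and clearly present on myotubes, a 39.9-fold difference (log2 fold change 5.32 ± 0.32 (SE), adjusted p = 3.5e-09). The co-cultured C2C12 libraries held 1.5 CPM, far below EO771 with C2C12. Sncb, beta-synuclein, measured 8.74, 4.3, 5.58 and 7.04 CPM on myotubes and 0, 0.0828, 0.218 and 0.294 CPM on fibroblasts, at 5.31 ± 0.54 (SE, adjusted p = 1.6e-06). Smtnl2, a smoothelin-like protein, measured 4.02, 5.99, 6.95 and 10.3 CPM on myotubes and 0.181, 0.248, 0.436 and 0.441 CPM on fibroblasts, at 4.29 ± 0.37 (SE, adjusted p = 2e-07). Neither gene had a library on fibroblasts within reach of the myotube group, and both were below 1 CPM in the C2C12 libraries of the shared culture.

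Nos2, the inducible nitric oxide synthase, measured 40.1, 78.4, 79.8 and 88 CPM on myotubes and 3.37, 2.9, 2.37 and 5.73 CPM on fibroblasts. R3-1 was the lowest library on myotubes and still far above the fibroblast group, with a log2 fold change of 4.24 ± 0.31 (SE, adjusted p = 2.8e-08). Atp9a, a putative phospholipid flippase, measured 8.15, 4.26, 6.37 and 4.35 CPM on myotubes and 0.181, 0.352, 0.517 and 0.343 CPM on fibroblasts, at 3.95 ± 0.36 (SE, adjusted p = 3.9e-07). Mgarp, a mitochondrial protein known to respond to hypoxia, measured 39.4, 25.6, 31 and 36.1 CPM on myotubes and 2.02, 3.12, 3.84 and 3.6 CPM on fibroblasts, at 3.31 ± 0.18 (SE, adjusted p = 9.6e-10). Again no library overlapped for any of the 3 genes, which the rule for the largest rises required.

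Loxl2, a lysyl oxidase that cross-links collagen and a known HIF target at chr14:69609068-69695834, measured 85.2, 71.3, 79.2 and 81.9 CPM on myotubes and 8.25, 7.34, 9.15 and 7.84 CPM on fibroblasts. Both groups were tight, and the 9.19-fold difference had a log2 fold change of 3.20 ± 0.14 (SE) and an adjusted p of 4.4e-11. Rgs11, a regulator of G protein signalling, measured 64.9, 45.4, 57.1 and 60.9 CPM on myotubes and 5.48, 7.32, 9.75 and 11.9 CPM on fibroblasts, at 2.65 ± 0.21 (SE, adjusted p = 6.1e-08). Foxs1, a forkhead factor, measured 24.6, 12.3, 16.9 and 14.7 CPM on myotubes and 2.14, 2.71, 4.17 and 3.43 CPM on fibroblasts, at 2.38 ± 0.21 (SE, adjusted p = 3.4e-07). Fam167a, a gene of unsettled function, measured 17.1, 11.6, 12.5 and 13.4 CPM on myotubes and 1.81, 2.77, 2.1 and 1.62 CPM on fibroblasts, at 2.62 ± 0.20 (SE, adjusted p = 3.7e-08). For these 4 genes as well the lowest myotube library exceeded the highest fibroblast library, a separation set in advance by the rule for the largest rises.

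Genes of DNA replication were lower on myotubes, with a smaller median difference than that of the hypoxia genes. Of 32 tested S phase members, 22 were called lower and 0 higher, against 12.9% of all tested members called lower, with a median log2 fold change of -0.39. This count rested in part on R3-1 of EO771 with C2C12, without which it was 14 with a median of -0.31. It was 8, with 1 member higher, when C2C12 counts were subtracted at the sarcomere share, 10 in a fit of all 28 libraries and 2 without the all-even libraries. In bulk libraries a smaller share of cells in S phase and less replication RNA per cell cannot be told apart.

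Mcm10, a replication initiation factor at chr2:4989714-5012791, measured 53.8, 93.1, 85.1 and 82.2 CPM on myotubes and 161, 137, 141 and 144 CPM on fibroblasts. R3-1 was the lowest library, every fibroblast library lay above every myotube library, and Mcm10 fell by 0.98 on the log2 scale (SE 0.13, adjusted p = 3.8e-05). Cdc6, which loads the replicative helicase and whose promoter is printed above, measured 27.8, 52.8, 42.8 and 38.1 CPM on myotubes and 80.1, 70.4, 71.2 and 72.2 CPM on fibroblasts. R3-1 was again lowest without setting the separation, and Cdc6 fell by 0.95 (SE 0.15, adjusted p = 0.00013). Orc1, a subunit of the origin recognition complex, measured 11.8, 23.6, 19.9 and 24 CPM on myotubes and 27.9, 28.7, 32.3 and 29.6 CPM on fibroblasts, a fall of 0.66 (log2 fold change -0.66 ± 0.17 (SE), adjusted p = 0.0067) that was lost on sarcomere subtraction (adjusted p = 0.0766).

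Prim1, the catalytic primase subunit, measured 35.6, 61, 52.1 and 49.3 CPM on myotubes and 71.4, 69.6, 78.2 and 63.5 CPM on fibroblasts (log2 fold change -0.60 ± 0.13 (SE), adjusted p = 0.00266). The libraries did not overlap, although R5-1 on myotubes and R7-1 on fibroblasts lay close. Pcna, the sliding clamp, measured 276, 364, 344 and 335 CPM on myotubes and 329.6, 418, 397 and 345 CPM on fibroblasts. These ranges overlapped, and the log2 fold change of -0.26 ± 0.11 (SE) had an adjusted p of 0.0761, which went to 0.0384 without R7-1 of EO771 with MLg and to 0.0146 without R5-1 and R7-1 together.

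Mitotic genes had calls in both directions. Of 29 tested G2/M members, 9 were called lower and 1 higher (34.5%, against 25.5% among all tested members), with a median of -0.16. Without R3-1 of EO771 with C2C12 the counts were 3 lower and 1 higher, with sarcomere subtraction 1 lower and 2 higher, and in the fit of all 28 libraries 0 in both directions, with 4 at an unadjusted p under 0.05. Foxm1, the factor that drives G2/M transcription, measured 106, 147, 140.4 and 137 CPM on myotubes and 176, 186, 187 and 162 CPM on fibroblasts. Its groups did not overlap, at -0.51 ± 0.11 (SE, adjusted p = 0.0016), although the fit of all 28 libraries gave an adjusted p of 0.0582. Cdc20, an activator of the anaphase-promoting complex, measured 93.1, 111, 117 and 119 CPM on myotubes and 119.9, 150.5, 159.5 and 152 CPM on fibroblasts, at -0.49 ± 0.11 (SE, adjusted p = 0.00304). R6-1 on myotubes and R5-1 on fibroblasts nearly met, and the call was lost on sarcomere subtraction (adjusted p = 0.0592) and in the fit of all 28 libraries (adjusted p = 0.206).

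Bub1, a spindle checkpoint kinase and the single member called higher, measured 129, 194, 181 and 196 CPM on myotubes and 106, 145, 139 and 108 CPM on fibroblasts. The groups overlapped through R3-1, and the call (log2 fold change 0.41 ± 0.13 (SE), adjusted p = 0.0263) was lost without R5-1, R5-2 or R6-1 of EO771 with C2C12 (adjusted p = 0.0733, 0.0622 and 0.0842) and without R5-1 or R7-1 of EO771 with MLg (adjusted p = 0.088 and 0.0767). Mki67, the common proliferation marker, measured 108, 172, 172 and 136 CPM on myotubes and 151, 132, 145 and 149 CPM on fibroblasts. The fibroblast range lay inside the myotube range, at -0.06 ± 0.13 (SE, adjusted p = 0.772).

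Transcripts of 3 CDK inhibitors were higher on myotubes. Of 13 tested p53 targets and CDK inhibitors, 4 were called higher and 1 lower (38.5%, against 25.5% among all tested members), with a median of 0.17. Cdkn1a, the inhibitor p21 at chr17:29090976-29100727, measured 135, 107, 112 and 174 CPM on myotubes and 22, 24.6, 24.5 and 27.1 CPM on fibroblasts. Every myotube library was more than 3 times above every fibroblast library (log2 fold change 2.35 ± 0.14 (SE), adjusted p = 2.2e-09). Myotubes express this gene themselves, at a mean of 162 CPM in the co-cultured C2C12 libraries, and the adjusted p was 4e-07 after sarcomere subtraction. Cdkn2d, the inhibitor p19, measured 35.6, 24.8, 25.4 and 33.4 CPM on myotubes and 9.61, 16.1, 18.9 and 13.4 CPM on fibroblasts, at 0.95 ± 0.18 (SE, adjusted p = 0.000679). Cdkn1b, the inhibitor p27, measured 168, 161, 153 and 147 CPM on myotubes and 118, 108, 99.9 and 97.2 CPM on fibroblasts, at 0.48 ± 0.10 (SE, adjusted p = 0.00122). Neither gene overlapped between groups.

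The member that fell was Plk2, a polo-like kinase and p53 target, which measured 15.5, 28.7, 28.8 and 33.8 CPM on myotubes and 110, 47.7, 45.9 and 59.5 CPM on fibroblasts. R5-1 on fibroblasts was the highest library by far. The log2 fold change of -1.40 ± 0.27 (SE, adjusted p = 0.000895) went to -0.90 without R5-1 and R7-1 of EO771 with MLg (adjusted p = 0.0105), 2 libraries that decide much of its size. Canonical p53 targets such as Mdm2 and Bax were among the 8 members that did not pass the test.

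Several targets of MYC, among them genes of ribosome biogenesis, were lower on myotubes while Myc itself was not called. In the MYC network, 9 of 16 tested members were called lower and 1 higher (62.5%, against 25.5% among all tested members). The median was -0.46. The 9 included Ncl, Rrp9 and Nolc1 of ribosome biogenesis and Odc1 of polyamine synthesis. Myc measured 498, 574, 559 and 560.1 CPM on myotubes and 556, 363, 384 and 498 CPM on fibroblasts. The groups overlapped and the difference of 0.19 ± 0.13 (SE) on the log2 scale had an adjusted p of 0.292, which became 0.0474 without R5-1 of EO771 with MLg and 0.00537 without R5-1 and R7-1. Ncl, nucleolin, measured 1642, 2248, 2376 and 2258 CPM on myotubes and 3475, 3728, 3497 and 2934 CPM on fibroblasts. All fibroblast libraries were above all myotube libraries, at -0.76 ± 0.13 (SE, adjusted p = 0.000241).

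Rrp9, which processes pre-ribosomal RNA, measured 58.5, 71.3, 72.7 and 79.4 CPM on myotubes and 113, 115, 133 and 141 CPM on fibroblasts, at -0.91 ± 0.11 (SE, adjusted p = 6.8e-06). Nolc1, a nucleolar chaperone of small nucleolar particles, measured 317, 366, 367 and 373 CPM on myotubes and 493, 564, 549.7 and 531 CPM on fibroblasts, at -0.67 ± 0.09 (SE, adjusted p = 3.3e-05). Odc1, the entry enzyme of polyamine synthesis, measured 1491, 1672, 1534 and 1701 CPM on myotubes and 2086, 2598, 2697 and 2334 CPM on fibroblasts, at -0.69 ± 0.10 (SE, adjusted p = 9.2e-05). None of these overlapped, and R3-1 was the lowest library in all 3. Mxd3, a MAX partner that represses MYC targets, was the member called higher, at 4.72, 4.51, 3.55 and 5.46 CPM on myotubes against 1.29, 1.9, 2.67 and 2.18 CPM on fibroblasts (log2 fold change 1.10 ± 0.25 (SE), adjusted p = 0.00332). Ccnd1, the G1 cyclin D1, measured 174, 125, 130.2 and 110 CPM on myotubes and 86.1, 111, 107 and 80.2 CPM on fibroblasts. The lowest myotube library, R6-1, lay below the highest fibroblast library, R6-1, and the call (0.40 ± 0.13 (SE), adjusted p = 0.0261) was lost without R3-1 of EO771 with C2C12 (adjusted p = 0.116), without R5-1 or R7-1 of EO771 with MLg (adjusted p = 0.0741 and 0.0758) and in the fit of all 28 libraries (adjusted p = 0.184).

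Part of the protein folding genes were lower on myotubes. Of 18 tested ER chaperones, 9 were called lower and 2 higher, with a median of -0.26. Of 11 tested cytosolic and mitochondrial heat shock proteins 6 were called lower and 0 higher, with a median of -0.36. These calls made up 61.1% and 54.5%, against 25.5% among all tested members. Without R3-1 of EO771 with C2C12 the lower counts were 6 and 4, and on sarcomere subtraction 4 ER chaperones were lower and 1 higher. Calr, the ER lectin calreticulin, measured 760.3, 856, 836 and 978 CPM on myotubes and 1819, 1379, 1146 and 1386 CPM on fibroblasts. R5-1 on fibroblasts was highest, and no library overlapped (log2 fold change -0.83 ± 0.14 (SE), adjusted p = 0.000335). Hspa5, the ER chaperone BiP, measured 1586, 1800, 1981 and 2003 CPM on myotubes and 2877, 2198, 1919 and 3061 CPM on fibroblasts. Its groups overlapped through R6-2 on fibroblasts, and the call at -0.53 ± 0.14 (SE, adjusted p = 0.00822) was lost without R5-1 and R7-1 (adjusted p = 0.114) and on sarcomere subtraction (adjusted p = 0.0631).

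Xbp1, a factor of the unfolded protein response, went the other way, at 101, 90.6, 95.1 and 103 CPM on myotubes and 54.8, 64.4, 64.1 and 88 CPM on fibroblasts (0.44 ± 0.11 (SE), adjusted p = 0.00722). The highest fibroblast library, R7-1, lay just below the lowest myotube library. Hspe1 and Hspd1, which form the mitochondrial folding chamber, differed by -0.75 ± 0.11 (SE, adjusted p = 5.2e-05) and -0.64 ± 0.10 (SE, adjusted p = 0.000204). Hspe1 measured 138, 175, 176 and 174 CPM on myotubes against 256, 276, 282 and 239 CPM on fibroblasts, and Hspd1 measured 832, 1127, 1089 and 1025 CPM on myotubes against 1435, 1568, 1496 and 1489 CPM on fibroblasts. Hspa8, the constitutive cytosolic chaperone, measured 2653, 3742, 3506 and 3392 CPM on myotubes and 4352, 5221, 4790 and 4005 CPM on fibroblasts, at -0.55 ± 0.12 (SE, adjusted p = 0.0027). In these 3 chaperones R3-1 was lowest and the groups did not overlap.

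Genes of the TGF-beta and integrin lists were in part higher on myotubes than on fibroblasts, and several were below their level in EO771 alone in both. Of 13 tested members of the TGF-beta list, 8 were called higher and 0 lower (61.5%, against 25.5% among all tested members), with a median of 0.80. Col7a1, the collagen of anchoring fibrils, measured 31.9, 26.1, 32.9 and 34.9 CPM on myotubes and 7.02, 6.37, 7.71 and 13 CPM on fibroblasts, against 118 ± 21.7 CPM (SD, n = 4) in EO771 alone. Both co-cultured groups lay far under the cells alone and the fibroblast group lay lowest, a log2 fold change of 1.80 ± 0.18 (SE, adjusted p = 1.3e-06) between hosts. Lrrc15, a TGF-beta induced surface protein, measured 4.19, 6.37, 4.89 and 6.49 CPM on myotubes and 1.72, 1.03, 0.98 and 1.69 CPM on fibroblasts, with 19.2 ± 3.35 CPM (SD, n = 4) alone, at 1.94 ± 0.22 (SE, adjusted p = 5.2e-06). Tgfbi, a secreted matrix protein, measured 11.7, 11.2, 12.4 and 12.8 CPM on myotubes and 4.76, 6.25, 6.29 and 3.92 CPM on fibroblasts, with 19.7 ± 1.6 CPM (SD, n = 4) alone, at 1.09 ± 0.15 (SE, adjusted p = 4.2e-05). The order of the 3 groups was the same in these genes: alone, then on myotubes, then on fibroblasts.

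Among the ID and BMP genes, 4 of 5 tested members were called higher and 0 lower (80.0%, against 25.5% among all tested members). Their median was 0.37, and on sarcomere subtraction 2 were higher and 1 lower, with a median of 0.16. Id1, an inhibitor of helix-loop-helix factors, measured 17.8, 10.4, 11.5 and 12.2 CPM on myotubes and 2.86, 3.85, 5.28 and 7.74 CPM on fibroblasts, at 1.32 ± 0.24 (SE, adjusted p = 0.000665). Id2, of the same family, measured 10.6, 11, 8.65 and 13.5 CPM on myotubes and 5.39, 5.32, 5.69 and 6.35 CPM on fibroblasts, at 0.86 ± 0.15 (SE, adjusted p = 0.000471). Their groups did not overlap, and R7-1 was the highest library on fibroblasts in both.

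Integrins, the receptors for matrix, had 6 of 11 tested members called higher and 0 lower (54.5%, against 25.5% among all tested members). Their median of 0.63 was 0.40 without R3-1 of EO771 with C2C12. Itga2, the collagen-binding alpha subunit, measured 17.5, 8.98, 7.46 and 6.15 CPM on myotubes and 2.92, 1.63, 1.09 and 2.18 CPM on fibroblasts. R3-1 was highest and the groups did not overlap (2.27 ± 0.32 (SE), adjusted p = 5.2e-05). Itgb3, the beta subunit of the vitronectin receptor, measured 203, 89.2, 91.7 and 77.5 CPM on myotubes and 24.8, 27.6, 18.9 and 31.5 CPM on fibroblasts, at 2.08 ± 0.24 (SE, adjusted p = 5.3e-06). R3-1 again lay above the other 3. Itgb2, the leukocyte-type beta subunit, measured 90.7, 46.1, 49.2 and 36.9 CPM on myotubes and 19, 21.2, 22.3 and 28.2 CPM on fibroblasts, at 1.21 ± 0.22 (SE, adjusted p = 0.000482), while EO771 alone held 4.64 ± 1.27 CPM (SD, n = 4). Both hosts thus went with more Itgb2, and myotubes with the most.

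Among matrix genes proper, 3 of 10 tested were called higher and 0 lower, with a median of 0.19. This 30.0% is near the 25.5% called among all tested members, and the count was 5 without R5-1 and R7-1 of EO771 with MLg and 2 on sarcomere subtraction. Col18a1, the source of endostatin, measured 348, 162, 180.1 and 144 CPM on myotubes and 82.8, 63.7, 53.2 and 112 CPM on fibroblasts, at 1.33 ± 0.26 (SE, adjusted p = 0.00103), with no overlap. Among proteases and their inhibitors 5 of 10 were called higher and 1 lower (60.0%, against 25.5% among all tested members), with a median of 0.54. Without R3-1 of EO771 with C2C12 3 were higher and 1 lower, with a median of 0.33. Mmp3, stromelysin-1, measured 707, 172, 178 and 177 CPM on myotubes and 61.9, 104, 88.2 and 96.2 CPM on fibroblasts. R3-1 was far above the other myotube libraries, and the difference of 3.31-fold (1.73 ± 0.34 (SE), adjusted p = 0.00105) was 1.91-fold without it (adjusted p = 3.9e-05). Mmp10, stromelysin-2, was tight in both groups, at 19.6, 16.4, 19.6 and 19 CPM on myotubes and 8.94, 8.3, 8.69 and 8.55 CPM on fibroblasts (1.03 ± 0.16 (SE), adjusted p = 0.000154). Plau, the urokinase plasminogen activator, measured 297, 148, 169 and 165 CPM on myotubes and 125, 94.5, 87.7 and 85.9 CPM on fibroblasts, at 0.89 ± 0.19 (SE, adjusted p = 0.00219), with R3-1 again the highest and no overlap.

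**Figure D4:**
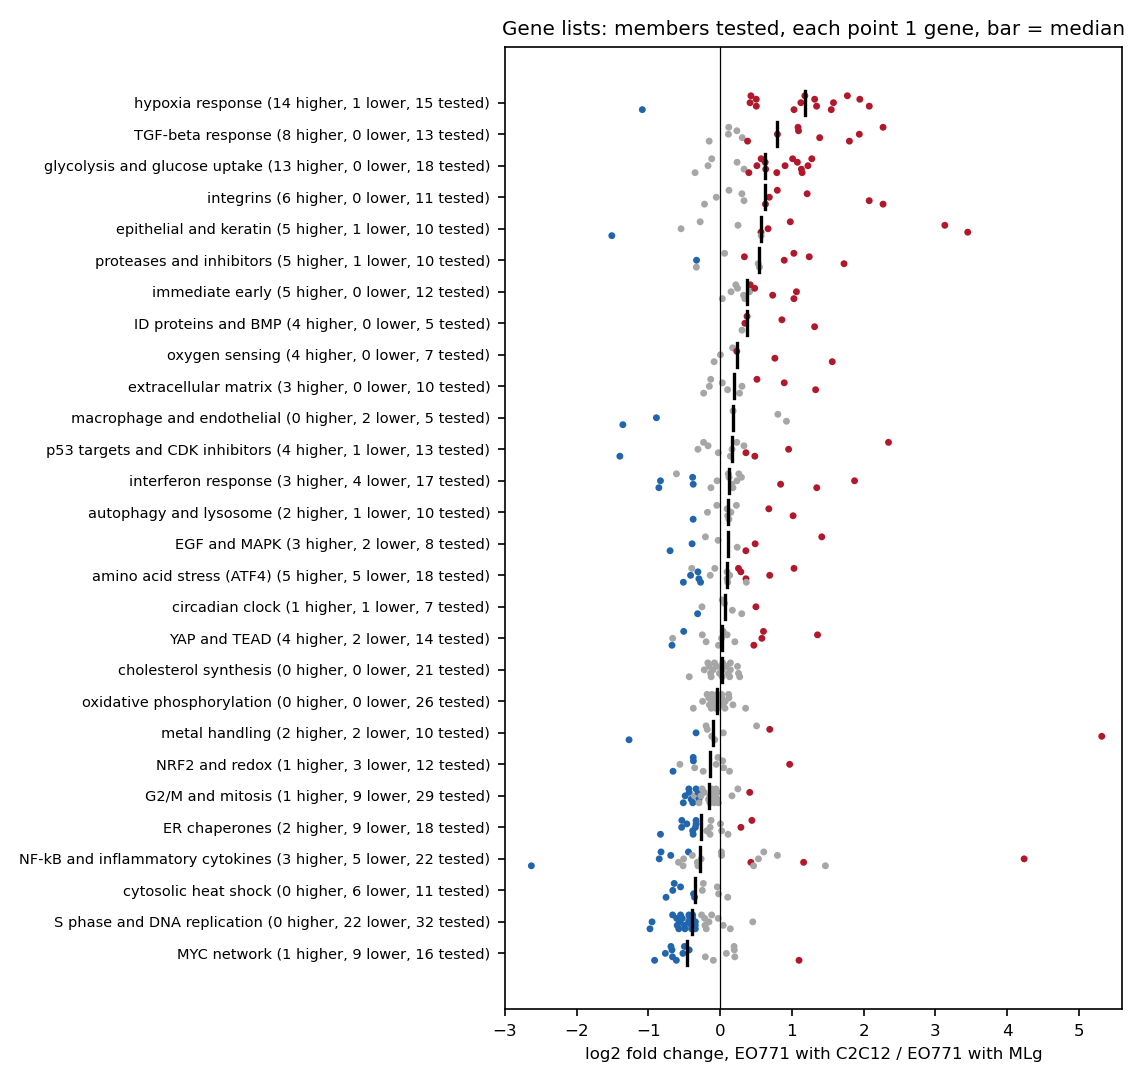
Each row is a gene list with at least 5 tested members, each point 1 tested member at its log2 fold change between hosts, red or blue where called higher or lower in EO771 with C2C12, and the bar is the list median. Hypoxia response lies furthest to the right (median 1.18) and the MYC network furthest to the left (-0.46). Hif3a of the oxygen-sensing list lies outside the horizontal range.

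Cytokine and interferon genes were mixed. On the NF-kB list 5 of 22 tested members were called lower and 3 higher, with a median of -0.29. All calls made up 36.4%, against 25.5% among all tested members, and the counts were 2 lower and 5 higher without R5-1 and R7-1 of EO771 with MLg. Without R3-1 of EO771 with C2C12 the median was 0.0044. Nfkb2, the precursor of the alternative NF-kB subunit, measured 122, 126, 122 and 110.4 CPM on myotubes and 205, 203, 196 and 212 CPM on fibroblasts. The 2 ranges were narrow and far apart (-0.85 ± 0.09 (SE), adjusted p = 3.8e-06). Lif, a cytokine of the interleukin-6 family, measured 19.6, 13.2, 15.2 and 15.1 CPM on myotubes and 8.34, 5.94, 4.82 and 7.35 CPM on fibroblasts, at 1.16 ± 0.19 (SE, adjusted p = 0.000218), with no overlap.

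On the interferon list, 3 of 17 tested members were called higher and 4 lower (41.2%, against 25.5% among all tested members), with a median of 0.12. Leaving out R5-1 and R7-1 of EO771 with MLg gave 2 higher and 1 lower, and the fit of all 28 libraries 3 higher and 2 lower. Oas3 and Oas1a, enzymes that activate RNase L, were called higher. Oas3 measured 24, 3.67, 3.48 and 8.63 CPM on myotubes and 1.14, 3.06, 2.89 and 3.09 CPM on fibroblasts, at 1.87 ± 0.50 (SE, adjusted p = 0.0101), and lost the call without R3-1 (1.96-fold, adjusted p = 0.1). Oas1a measured 17.9, 9.03, 8.51 and 14 CPM on myotubes and 4.67, 6.52, 7.38 and 7.45 CPM on fibroblasts, at 0.84 ± 0.22 (SE, adjusted p = 0.00749), which went to an adjusted p of 0.0543 without R5-1 and R7-1 of EO771 with MLg. The members called lower included Ifit1, which binds foreign RNA, and Dhx58, a regulator of RNA sensing. Ifit1 measured 6.58, 6.71, 4.38 and 5.39 CPM on myotubes against 12.2, 9.83, 8.52 and 7.99 CPM on fibroblasts (-0.83 ± 0.22 (SE), adjusted p = 0.00955), and the fit of all 28 libraries gave an adjusted p of 0.0536. Subtracting C2C12 counts at the sarcomere share left almost none of it on myotubes (log2 fold change -10.94). Dhx58 measured 4.13, 3.88, 4.13 and 3.87 CPM on myotubes against 9.3, 4.59, 5.64 and 7.69 CPM on fibroblasts (-0.85 ± 0.23 (SE), adjusted p = 0.0101), leaving out R5-1 and R7-1 gave an adjusted p of 0.165, and sarcomere subtraction a log2 fold change of -1.57. Both hosts express Ifit1 far above EO771, at 139.6 and 199 CPM in the co-cultured C2C12 and MLg libraries, so its level here includes any host RNA.

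EGF receptor signalling had calls in both directions. Of 8 tested members, 3 were called higher and 2 lower (62.5%, against 25.5% among all tested members), with a median of 0.10. In the fit of all 28 libraries 1 was higher and 2 were lower. Areg, a ligand of the receptor, measured 154, 88.8, 99 and 111 CPM on myotubes and 26.6, 42.1, 41.5 and 50.4 CPM on fibroblasts, with no overlap and R3-1 highest (1.42 ± 0.16 (SE), adjusted p = 6.2e-06). Egfr, the receptor, went the other way, at 57.3, 63.5, 56 and 53.3 CPM on myotubes and 106, 83.8, 71 and 89.98 CPM on fibroblasts (-0.70 ± 0.14 (SE), adjusted p = 0.00123), and both hosts express it, at 144 and 196 CPM. Of 10 tested epithelial genes, 5 were called higher and 1 lower (60.0%, against the same 25.5%), with a median of 0.57. Krt8, a keratin of simple epithelia, measured 257, 181, 204 and 202 CPM on myotubes and 72.1, 99.8, 106 and 128 CPM on fibroblasts. All myotube libraries were above all fibroblast libraries (0.98 ± 0.13 (SE), adjusted p = 2.3e-05).

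In the Notch pathway 2 of 4 tested members were called higher and 1 lower (75.0%, against 25.5% among all tested members), with a median of 0.32. Dll4, a ligand, measured 11.4, 1.52, 2.17 and 2.07 CPM on myotubes and 0.241, 0.145, 0.218 and 0.049 CPM on fibroblasts. R3-1 was far above the other myotube libraries, and the fold of 24.6 (4.62 ± 0.67 (SE), adjusted p = 6.9e-05) was 11.1 without it (adjusted p = 0.000152). Notch1, a receptor, measured 46.5, 41.8, 44.3 and 38 CPM on myotubes and 27.8, 26.2, 27.2 and 29.1 CPM on fibroblasts, at 0.54 ± 0.15 (SE, adjusted p = 0.014). Jag1, another ligand, was lower on myotubes, at 21.8, 22.5, 23.2 and 20.9 CPM on myotubes against 39.2, 30.3, 28.1 and 39.1 CPM on fibroblasts (-0.72 ± 0.13 (SE), adjusted p = 0.000485). The groups did not overlap in either.

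Metal, redox and amino acid lists had calls in both directions. Of 10 tested metal handling members, 2 were called higher and 2 lower, with a median of -0.10, and Atp7b above was one of the higher. Slc30a1, which exports zinc from the cell, measured 8.85, 15.5, 16.6 and 12.4 CPM on myotubes and 41.5, 27.9, 25.2 and 26.1 CPM on fibroblasts (-1.27 ± 0.20 (SE), adjusted p = 0.000166). R5-1 was the highest library on fibroblasts and no library overlapped. Slc39a10, which imports zinc, went the other way, at 96.7, 99.9, 91.4 and 109.8 CPM on myotubes and 56.8, 67.6, 63.6 and 43.7 CPM on fibroblasts (0.69 ± 0.12 (SE), adjusted p = 0.000485). On the NRF2 list 1 of 12 was called higher and 3 lower, with a median of -0.15. That is 33.3%, near the 25.5% called among all tested members, and on sarcomere subtraction 1 was higher and 1 lower. Osgin1, a growth inhibitor induced by oxidative stress, measured 39.8, 35.1, 35.3 and 33 CPM on myotubes and 15, 17.9, 15.7 and 20.4 CPM on fibroblasts (0.97 ± 0.11 (SE), adjusted p = 3e-06). Gclm, a subunit of the glutathione-synthesising ligase, measured 28.8, 43.9, 44.1 and 41.9 CPM on myotubes and 54.4, 62.3, 61.1 and 58.4 CPM on fibroblasts (-0.66 ± 0.12 (SE), adjusted p = 0.000764), with R3-1 lowest. Neither overlapped.

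Of 18 tested members on the list of ATF4 targets, 5 were called higher and 5 lower, with a median of 0.10, or 55.6% called against 25.5% among all tested members. These counts were 2 higher and 3 lower without R3-1 of EO771 with C2C12, 6 higher and 1 lower on sarcomere subtraction, and 3 higher and 2 lower in the fit of all 28 libraries. Phgdh, the entry enzyme of serine synthesis, measured 447, 526, 559 and 523 CPM on myotubes and 605, 759, 769 and 634 CPM on fibroblasts (-0.51 ± 0.10 (SE), adjusted p = 0.00138). Aldh1l2, a mitochondrial folate enzyme, was higher, at 338, 377, 339.8 and 272 CPM on myotubes against 202, 206, 180.4 and 185 CPM on fibroblasts (0.69 ± 0.11 (SE), adjusted p = 0.000222). No library overlapped in either gene. Cholesterol synthesis had 0 of 21 tested members called by edgeR, with 1 at an unadjusted p under 0.05, a median of 0.03, and 0 called by DESeq2 or limma. Leaving out R5-1 and R7-1 of EO771 with MLg gave 3 lower, and the replicate block gave 1 lower.

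Of the immediate early genes, 5 of 12 tested were called higher and 0 lower (41.7%, against 25.5% among all tested members), with a median of 0.38. This was 8 higher without R5-1 and R7-1 of EO771 with MLg and 3 in the fit of all 28 libraries. YAP and TEAD genes had 4 of 14 higher and 2 lower (42.9%, against the same 25.5%, median 0.03), or 3 higher and 4 lower on sarcomere subtraction. Autophagy and lysosome genes had 2 of 10 higher and 1 lower (30.0%), and clock genes 1 of 7 higher and 1 lower (28.6%). These last 2 shares were near the 25.5% called among all tested members. The macrophage and endothelial markers had 0 of 5 higher and 2 lower, Pecam1 and Cd68. Of the fibroblast markers 2 met the rule and were tested, and edgeR called 0 of them, as did DESeq2 and limma, with 0 at an unadjusted p under 0.05.

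Of the 12 largest falls named by the rule, which took only genes whose libraries did not overlap, 6 were not protein coding. The largest, n-R5-8s1, which is annotated as a ribosomal RNA gene and can share reads with near-identical copies, measured 0, 0, 1.16 and 0 CPM on myotubes and 25.8, 1.8, 6.4 and 26.5 CPM on fibroblasts. On myotubes it had counts only in R5-2, the only library there whose counts were not all even. Whether the zeros go with the counting of the all-even libraries was not tested. R5-1 and R7-1 were the highest on fibroblasts. The log2 fold change of -6.00 ± 0.94 (SE, adjusted p = 0.000135) went to -4.07 without that pair (adjusted p = 0.00585), and the call was lost without the all-even libraries (adjusted p = 0.0794). Among the protein-coding falls, Lars2, the mitochondrial leucyl-tRNA synthetase, measured 309.6, 266, 400.1 and 395 CPM on myotubes and 1411, 462, 941 and 2344 CPM on fibroblasts. R5-1 and R7-1, the fibroblast libraries with the high mitochondrial share, were the highest. The log2 fold change of -1.99 ± 0.34 (SE, adjusted p = 0.000275) went to -1.13 without them (adjusted p = 0.00664). Elovl3, a fatty acid elongase, measured 1.46, 2.78, 3.37 and 2.76 CPM on myotubes and 8.85, 7.53, 5.42 and 7.18 CPM on fibroblasts, at -1.57 ± 0.22 (SE, adjusted p = 4.8e-05). Slc5a6, a vitamin transporter for biotin and pantothenate, measured 10.8, 19.7, 17.3 and 13.6 CPM on myotubes and 46.3, 38.1, 36 and 33.1 CPM on fibroblasts, at -1.41 ± 0.17 (SE, adjusted p = 8.5e-06). R3-1 was the lowest library for both, and the groups did not overlap.

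Tacr2, the receptor for neurokinin A, measured 2.62, 6.16, 5.18 and 4.14 CPM on myotubes and 12.2, 10.4, 8.63 and 11.8 CPM on fibroblasts (-1.33 ± 0.21 (SE), adjusted p = 0.000149). Every fibroblast library was above every myotube library, which the rule for the largest falls required.

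Each co-culture was also set against EO771 alone. Both comparisons share the 4 libraries of EO771 alone, and the genes below were named for their difference between hosts, so the values are given side by side as a description. For Egln1 the change was 1.62 with C2C12 (adjusted p = 1.6e-09) and 0.06 with MLg (adjusted p = 0.788). Ero1l changed by 2.11 with C2C12 (adjusted p = 1.7e-08) and by 0.03 with MLg (adjusted p = 0.941). In Atp7b the values were 5.50 (adjusted p = 1.6e-09) and 0.18 (adjusted p = 0.862). In these 3 genes the estimate with MLg lay near 0.

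Slc2a1 gave 1.51 with C2C12 (adjusted p = 2.3e-08) and 0.23 with MLg (adjusted p = 0.241). Mcm10 gave -1.06 (adjusted p = 1e-05) and -0.08 (adjusted p = 0.795). Ncl gave -0.82 (adjusted p = 7.8e-05) and -0.06 (adjusted p = 0.858). Other genes were below the cells alone in both co-cultures. Col7a1 gave -1.99 with C2C12 (adjusted p = 1.7e-07) and -3.79 with MLg (adjusted p = 2.3e-10), and Id2 gave -0.97 (adjusted p = 7.8e-05) and -1.83 (adjusted p = 1.7e-07). Nos2 rose with C2C12 by 3.05 (adjusted p = 4e-07) and was -1.18 with MLg (adjusted p = 0.0134). Nfkb2 gave -0.22 with C2C12 (adjusted p = 0.0803) and 0.63 with MLg (adjusted p = 0.000116), passing the test with MLg and not with C2C12.

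**Figure D5:**
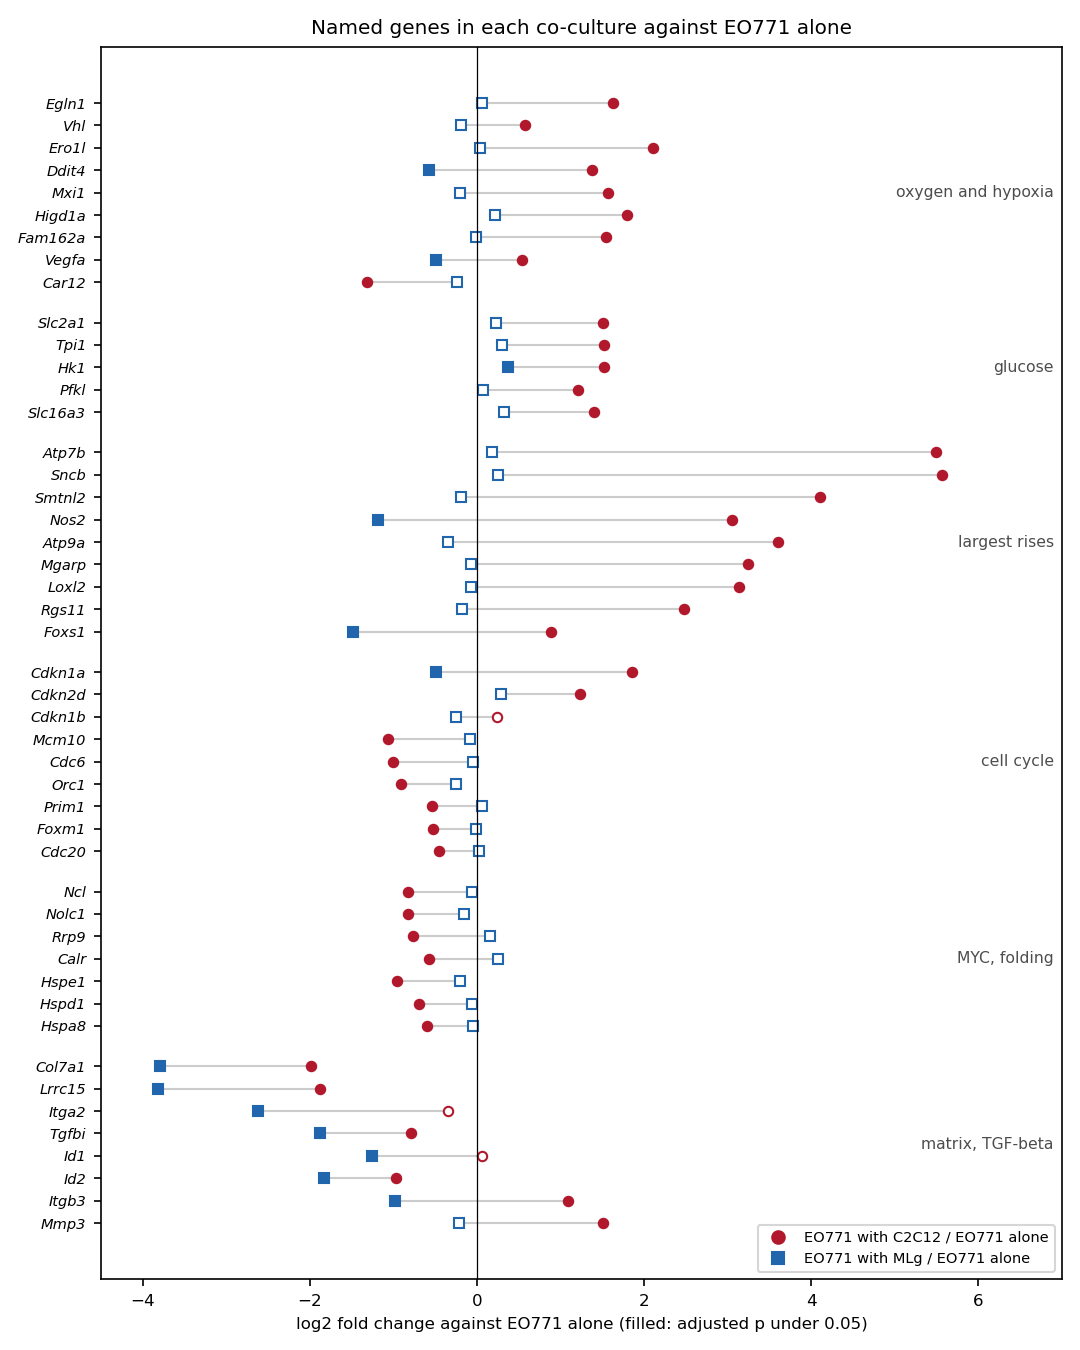
Points give the log2 fold change of named genes against EO771 alone, circles with C2C12 and squares with MLg, filled where the adjusted p was under 0.05. The oxygen, glucose and cell cycle genes have circles away from 0 and most squares near it, whereas Col7a1 lies below 0 in both (-1.99 and -3.79). Both comparisons use the same 4 libraries of EO771 alone.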

How the data were processed

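The authors deposited raw counts per gene, 1 table per library, without normalization. Tools listed in the submitters' processing notes are STAR 2.7.10a, Subread 2.0.1, featureCounts, fastp and DESeq2; build and strand setting were not given in the sources used here, so overlapping genes can share reads. All 55536 identifiers were found in the GENCODE M21 annotation of GRCm38, used for symbols and coordinates. The assignment of files to samples recorded with the series was followed, although on myotubes the files of R5-1 and R5-2 are named for each other. No replicate pair agreed within sampling noise (lowest chi-square per degree of freedom 9.42, even counts halved).

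The 12 EO771 libraries were fitted with 1 mean per group in edgeR 4.0.16 (R 4.3.3), with TMM factors, filterByExpr (minimum count 10, total 15), the quasi-likelihood test and Benjamini-Hochberg adjustment over 15794 genes; a gene was called at an adjusted p under 0.05. The pipeline was tested on simulated data. Alternatives used DESeq2 1.42.0, limma 3.58.1, other factors, filters and samples, and subtraction of partner counts. CPM were computed from library totals. Intervals for low counts cover counting error only.

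Members and gene lists were chosen with earlier results of these data known. The rule for names took the 12 largest rises and 12 largest falls among called members whose libraries did not overlap, at a mean of at least 5 CPM in the higher group. It added up to 5 called members per list by size of change, whatever their level or overlap, and 10 preset genes; the text gives a subset, and some named genes are not reported here. Sequences are from RefSeq.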

Additional observations from a re-analysis of the deposited data

Results flagged for a closer look

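Several named genes had 1 library set apart from the other 3 of its group by a gap above Dixon's 95% critical value, which chance reaches in about 1 of 20 groups. Many named genes were looked at, so a number of such gaps would be reached by chance alone. In EO771 with C2C12 this was most often R3-1. It was the highest library for Ddit4 (254 CPM), Dll4 (11.4 CPM), Itgb3 (203 CPM), Mmp3 (707 CPM) and Plau (297 CPM), and the lowest for Gclm (28.8 CPM), Hspe1 (138 CPM) and Nolc1 (317 CPM). For Epas1 in R3-1 (0.117 CPM) and n-R5-8s1 in R5-2 (1.16 CPM) the other 3 libraries were at 0, so that any count would be set apart. In EO771 with MLg the libraries set apart were R6-1 for Arnt (88.2 CPM, highest), R5-1 for Oas3 (1.14 CPM, lowest) and R5-1 for Slc30a1 (41.5 CPM, highest).

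Some genes passed edgeR's quasi-likelihood test against EO771 alone in both co-cultures, in opposite directions, higher on myotubes and lower on fibroblasts. In each of them all 4 myotube libraries lay above all libraries of EO771 alone, whereas on fibroblasts the range overlapped that of EO771 alone for Nos2, Lif, Vegfa and Hif3a. Their differences between hosts were 4.24 for Nos2, 2.62 for Fam167a, 2.38 for Foxs1, 2.35 for Cdkn1a, 2.08 for Itgb3, 1.95 for Ddit4, 1.42 for Areg, 1.16 for Lif and 1.03 for Vegfa on the log2 scale. Hif3a was at least 14.1-fold higher on myotubes. In the opposite sense, n-R5-8s1 was lower on myotubes and higher on fibroblasts than in EO771 alone, with a difference of -6.00. Outside the genes that met the level rule, the sarcomere and myotube list summed to a mean of 295 CPM in EO771 with C2C12, against 25.2 CPM in EO771 alone.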

How the results depend on the processing

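Among the named genes and the member, hypoxia and S phase counts, no called result changed direction in the alternatives that could give it. Of the 31 alternatives, 4 were added after seeing the data. They were subtraction of partner counts with the sarcomere share for C2C12, and leaving out R5-1 and R7-1 of EO771 with MLg, the all-even libraries or the mitochondrial genes. Leaving out the all-even libraries gave 329 higher and 74 lower members and 2 lower S phase members, with fewer samples in the fit. Sarcomere subtraction gave 1027 lower members and 8 lower S phase members, and the fit of all 28 libraries 10 lower S phase members; the cause was not tested. Over the omissions of 1 library, lower members ranged from 1040 to 1780 and lower S phase members from 14 to 22, both lowest without R3-1 of EO771 with C2C12. The balance of higher and lower calls turned for several lists. Without R5-1 and R7-1 of EO771 with MLg it turned for NF-kB genes (5 higher, 2 lower) and interferon genes (2 higher, 1 lower). On sarcomere subtraction it turned for G2/M genes (2 higher, 1 lower) and YAP and TEAD genes (3 higher, 4 lower). In the fit of all 28 libraries it turned for EGF genes (1 higher, 2 lower). Over all members it turned in some alternatives, such as without R3-1 of EO771 with C2C12 (1179 higher, 1040 lower). Higher hypoxia members ranged from 10 to 14 over all alternatives. Higher genes made up 49.2% of called members, 59.5% on sarcomere subtraction and 81.6% without the all-even libraries. Of 139 named genes called, 58 kept the call in every alternative. With a replicate block on the R numbers, 1646 members were higher and 1717 lower, with 13 higher hypoxia and 20 lower S phase members, and Dll4 had a log2 fold change of 3.23. This block does not pair the hosts. Only R7-1 of EO771 with MLg carries the number R7, so the block leaves that library without weight in the comparison. The number R3 occurs with C2C12 and alone, but not with MLg. Of the genes in the text, Arnt and Ccnd1 lost their calls under the block (adjusted p = 0.0798 and 0.114). Deviations of same-numbered libraries from their group means correlated at 0.018 to 0.145, and those of the other pairs at -0.152 to 0.079. The meaning of the R numbers is not given, and these weak correlations cannot tell whether same-numbered libraries share a batch. Genes near the count limit, such as Hif3a, Sncb and Epas1, are limited by depth.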
